A study of Homo sapiens with 4 samples.

Results

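MI-503 was added to SD70 in MOLM13 cells, and the RNA library of cells given both agents was set here against that of cells given SD70 alone. The genes described are the 6556 protein-coding genes, joined by gene identifier, whose mean over those 2 libraries was at least 5 FPKM, of 19951 protein-coding genes and 58735 identifiers in all. FPKM counts fragments per kilobase of a gene's exons, scaled to the size of the library, so it allows levels of different genes to be compared per length. MOLM13 is an established acute myeloid leukaemia line of monocytic type in which MLL (KMT2A) is fused to AF9 (MLLT3). The 4 groups of the series were cells given the combination of both agents, SD70 alone, MI-503 alone, or the vehicle DMSO, each for 12 h. Every group was 1 library of the same line, and the series asks what underlies a synergistic effect of the pair on leukaemia of this kind. No source used here gives the doses. The combination is therefore compared with SD70 with no replicate on either side, and MI-503 against DMSO shows the same agent without SD70 in the other 2 libraries.

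Menin is a scaffold protein that ties MLL and its fusions to chromatin, and MI-503 occupies the pocket in menin that MLL uses. Fusion targets such as HOXA9, MEIS1 and their partner PBX3 keep leukaemia cells in a progenitor state, and monocytic genes usually increase when menin is displaced. SD70 is a small molecule known as an inhibitor of the lysine demethylase KDM4C. MYC drives the genes of the nucleolus, where ribosomal RNA is made and assembled, and also many genes of nucleotide, polyamine and amino acid supply. ATF4 turns on amino acid transporters, amino acid synthesis and tRNA charging when these run short, and azurophil granules are the protease stores that myeloid progenitors begin to fill.

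The 4 libraries held between 14695753 and 15937390 reads as recovered from the deposited values, with 15093444 in the combination and 14695753 in SD70. The measured genes took 89.1% of reads in the combination and 88.8% in SD70. Mitochondrial ribosomal RNA took 1.43% of reads in the combination and 1.497% in SD70, against 0.928% in MI-503 and 0.853% in DMSO. All 15 markers used to define monocytic leukaemia cells were above 0 in the combination and SD70 libraries, and 12 of them averaged at least 5 FPKM. Markers of most other cells were low: erythroid markers summed to 7.53 FPKM in the combination and 7.48 in SD70, with 9 of 14 at 0 in both, including HBB and GATA1. Megakaryocyte markers summed to 4.15 and 3.87 FPKM, B cell markers to 3.61 and 5.49, and mast cell markers to 1.49 and 1.51, in the combination and in SD70. Markers of fibroblasts, endothelium and epithelium summed to 28.96 FPKM in the combination and 30.4 in SD70, of which PECAM1, also a myeloid surface protein, gave 26.1 and 27.4, while EPCAM and COL3A1 were at 0. Markers of T and NK cells summed to 123 FPKM in the combination and 130 in SD70. Of these CD4, which monocytic cells also carry, gave 60.0 and 61.1, and NKG7, a granule protein of NK cells, 48.4 and 54.9. Of the 12 markers on that list, 3 averaged at least 5 FPKM, only 2 of them among the measured protein-coding genes. At 0 in both libraries were 3, including CD3E and CD2. No member of the marker lists for megakaryocytes, B cells or mast cells averaged 5 FPKM over the 2 libraries.

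Differences between the combination and SD70 were small. A fold of 5 to 4, which is 0.32 log2 units, was taken as the lower step, with 1.5-fold and 2-fold above it. Of the 6556 genes, 94.5% lay within 0.32 log2 units, no gene reached 2-fold, and the differences ran between -0.82 and 0.94 on the log2(FPKM + 1) scale with a median of 0.02. At least 0.32 log2 units higher in the combination were 255 genes (3.89% of those measured), and 106 were at least 0.32 log2 units lower (1.62%), which makes 361 apart (5.51%). At 1.5-fold 19 genes were higher (0.29%) and 4 lower (0.061%), or 23 apart (0.351%). The split of higher and lower moved with the scaling of the libraries. Among genes 0.32 log2 units apart, 70.6% were higher as deposited, against 45.6% (156 higher and 186 lower) when both libraries were brought to the same summed FPKM and 52.5% (177 and 160) when brought to the same number of reads. Among genes 1.5-fold apart the share higher was 82.6% as deposited, against 57.9% (11 and 8) and 63.2% (12 and 7) under those scalings. The minimum was applied after scaling, so these counts are over 6658 genes with the same summed FPKM and 6653 with the same number of reads. Over the same 6556 genes, those 0.32 log2 units apart were 152 higher and 183 lower, and 173 and 158. The median over all genes moved only between -0.03 and 0.02, so the scaling matters for genes close to the threshold. Of all 6556 genes, 3673 (56.0%) were higher at all in the combination as deposited and 2883 were lower. With the same summed FPKM 2795 were higher and 3761 lower, and with the same number of reads 2998 and 3558. Counts of list members higher or lower at all stand beside these shares. In the same 6556 genes MI-503 alone gave wider differences from DMSO, with 800 genes at least 0.32 log2 units apart (12.2%), 489 of them higher (7.46%) and 311 lower (4.74%). At 1.5-fold 182 were apart (2.78%), 161 higher (2.46%) and 21 lower (0.32%), and at 2-fold 29 (0.442%), 26 higher (0.397%) and 3 lower (0.0458%).

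For each gene a 95% interval of the ratio of FPKM was computed from the recovered reads of the 2 libraries, and it covers counting error only. It lay above 1 for 1724 genes (26.3%) and below 1 for 1098 (16.7%), though the balance turned to 1111 above and 1747 below with the same summed FPKM and 1245 and 1562 with the same number of reads. Many of these differences were smaller than 0.32 log2 units. Such an interval compares 2 libraries and says nothing of the spread between cultures, which 1 library per group cannot show. RNA was taken from whole cultures, so fewer cells of one kind and less RNA per cell cannot be told apart in any value below.

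**Figure D1:**
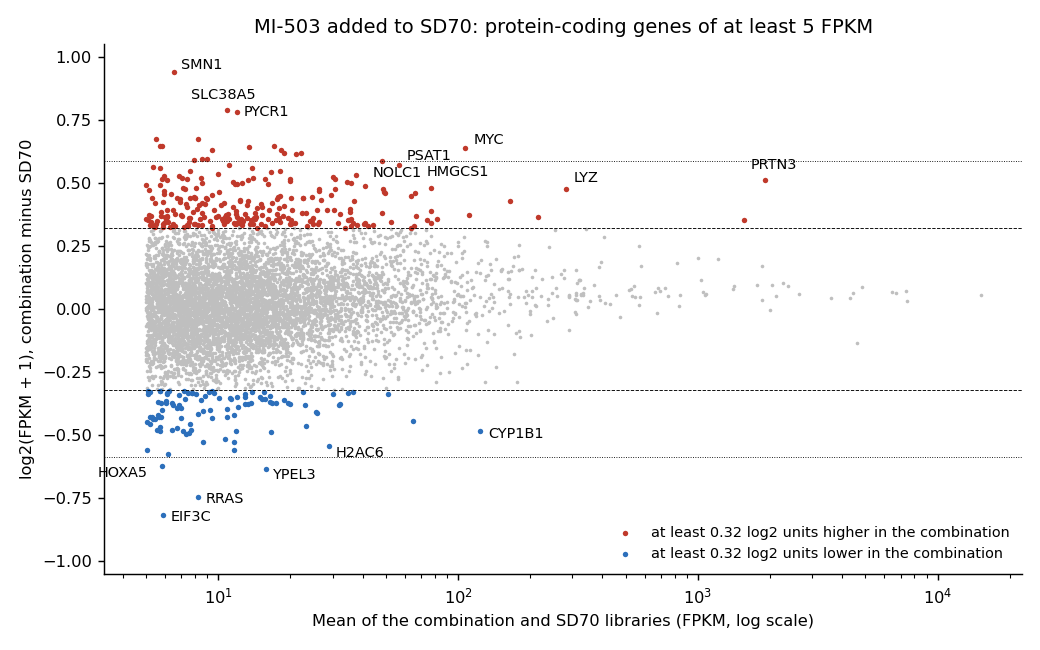
Each point is 1 of the 6556 measured genes, with the mean FPKM of the combination and SD70 libraries on a log axis and the log2(FPKM + 1) difference, combination minus SD70, on the vertical axis. Dashed lines mark 0.32 log2 units and dotted lines 1.5-fold. The 255 higher genes (red) include well-expressed ones such as PRTN3, LYZ and MYC, and the 106 lower genes (blue) include CYP1B1 and H2AC6.

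The 255 higher genes and the 106 lower ones stood at different places among the 4 libraries. The higher genes had a median level of 14.2 FPKM in the combination and 10.4 in SD70, against 19.8 in MI-503 and 21.1 in DMSO. The lower genes had medians of 7.15 FPKM in the combination and 10.01 in SD70, against 6.15 in MI-503 and 5.07 in DMSO. In both classes the median of the combination lay between those of SD70 and DMSO. The classes were chosen with the SD70 library, so these medians describe them and test nothing.

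Among well-counted genes (at least 200 reads over the combination and SD70 together, with an interval that left out 1), the largest difference was that of SMN1, whose protein assembles the small nuclear ribonucleoproteins of the spliceosome. SMN1 (ENSG00000172062, chromosome 5, 70925030 to 70953942) had 8.87 FPKM in the combination and 4.15 in SD70, against 24.3 in MI-503 and 6.22 in DMSO. It was higher with MI-503 both with and without SD70. SMN1 has a near-identical copy, SMN2, between which reads may be split, and SMN2 had 2.79 FPKM in the combination and 2.92 in SD70, against 3.60 in MI-503 and 5.47 in DMSO. With the reads of both copies summed the ratio of the combination to SD70 was 1.66 (95% interval 1.44 to 1.90), against 2.14 (1.80 to 2.54) for SMN1 alone.

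SLC38A5, a transporter of glutamine and other neutral amino acids, came next with 14.0 FPKM in the combination and 7.68 in SD70, against 21.3 in MI-503 and 21.9 in DMSO, a ratio of 1.82 (1.63 to 2.04) for the combination over SD70. PYCR1 (chromosome 17, 81932384 to 81942412), the mitochondrial enzyme of the last step of proline synthesis, had 15.3 FPKM in the combination and 8.51 in SD70, against 19.0 in MI-503 and 20.4 in DMSO, a ratio of 1.80 (1.59 to 2.05). Further genes of the 15 highest followed. ALDH1B1, a mitochondrial aldehyde dehydrogenase, had 6.97 FPKM in the combination and 3.995 in SD70, and COQ3, a methyltransferase of ubiquinone synthesis, had 7.36 and 4.34. NDUFAF8, an assembly factor of respiratory complex I, had 11.6 FPKM in the combination and 7.14 in SD70, and SFXN4, a mitochondrial sideroflexin, had 16.6 and 10.3. CD320, the cellular receptor for transcobalamin, had 22.9 FPKM in the combination and 14.6 in SD70, and the nucleotide hydrolase DNPH1 had 26.9 and 17.2. The sialomucin PODXL2 had 22.4 FPKM in the combination and 14.1 in SD70, SNRPE, a core protein of spliceosomal particles, had 25.7 and 16.4, and C16orf74 had 7.20 and 4.24. In MI-503 and DMSO these 9 genes stood above their SD70 level, for example COQ3 at 13.0 and 16.6 FPKM and PODXL2 at 42.3 and 41.2. MS4A4E and MYC complete the 15 with RRP9, and are described with their families.

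The lowest difference was that of EIF3C, a subunit of translation initiation factor 3. EIF3C had 3.99 FPKM in the combination and 7.80 in SD70, against 7.42 in MI-503 and 6.69 in DMSO, so that the combination stood apart from the other 3 libraries. Its near-identical copy EIF3CL had 2.26 FPKM in the combination and 2.20 in SD70, and with both copies summed the ratio was 0.569 (0.511 to 0.633). RRAS, a GTPase of the RAS family, had 5.91 FPKM in the combination and 10.6 in SD70, against 4.09 in MI-503 and 3.37 in DMSO, a ratio of 0.558 (0.436 to 0.711). YPEL3 had 12.2 FPKM in the combination and 19.4 in SD70, against 5.22 in MI-503 and 2.35 in DMSO. ID2, which binds and blocks basic helix-loop-helix factors, had 9.24 FPKM in the combination and 14.1 in SD70, against 13.9 in MI-503 and 14.6 in DMSO, and so was low in the combination only among these 4 libraries. AUH, an enzyme of leucine breakdown, had 4.75 FPKM in the combination and 7.56 in SD70, against 7.66 in MI-503 and 6.10 in DMSO, a similar order. The other genes of the lowest 15 included the retinaldehyde reductase DHRS3 (3.90 FPKM in the combination and 6.22 in SD70), the cyclooxygenase PTGS1 (6.88 and 10.3), ABHD4 (5.91 and 8.75), INAFM1 (6.08 and 8.96), the ubiquitin ligase RNF19B (13.7 and 19.6) and RBMX2 (4.59 and 6.82). HOXA5, SAP30, H2AC6 and BCL3 fill the list and are given further on.

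Genes of the nucleolus gave the most members at least 0.32 log2 units higher of the lists described here. MYC, the transcription factor that drives many of them, had 130.02 FPKM in the combination and 83.2 in SD70, against 169 in MI-503 and 181 in DMSO. Its ratio of 1.56 (1.501 to 1.63) rested on 6035 and 3861 reads, and its difference was 0.64 with SD70 and -0.09 without it. The partners of MYC differed less: MAX had 10.6 FPKM in the combination and 9.72 in SD70, MGA 6.20 and 5.30, and the antagonist MXI1 13.1 and 14.7. Of 55 listed genes of ribosome biogenesis and the nucleolus, 48 were measured. All 48 were higher in the combination as deposited, beside 56.0% of all measured genes, and 47 of 48 under either other scaling. At least 0.32 log2 units higher were 19 of the 48, beside 3.89% of all measured genes, with 12 and 13 under the other scalings, and 0 were 0.32 log2 units lower under any of them. The median difference was 0.29 beside 0.02 over all genes. As deposited, the interval lay above 1 for 44 of the 48, beside 26.3% of all genes. Without SD70 the same 48 genes had a median difference of -0.21, MI-503 minus DMSO.

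RRP9, a protein of the U3 small nucleolar ribonucleoprotein, had the largest difference of the list at 0.64, with 21.1 FPKM in the combination and 13.1 in SD70, against 33.0 in MI-503 and 38.2 in DMSO. MYBBP1A, a nucleolar MYB-binding protein, had 23.5 FPKM in the combination and 16.2 in SD70, against 40.7 in MI-503 and 42.3 in DMSO. NOLC1, a chaperone of small nucleolar ribonucleoproteins, had 48.2 FPKM in the combination and 34.1 in SD70, against 76.2 in MI-503 and 87.1 in DMSO. Each of these 3 genes held the same order, with SD70 lowest, the combination above it, and MI-503 and DMSO higher than both. POLR1A, the largest subunit of RNA polymerase I, had 9.37 FPKM in the combination and 6.64 in SD70, against 15.5 in MI-503 and 17.9 in DMSO, a ratio of 1.41 (1.32 to 1.51). Over 6 measured subunits of that polymerase, a list put together after the values were seen, the median was 0.28. At least 0.32 log2 units higher were 3 of the 6, beside 3.89% of all genes. The 2 most abundant members, NPM1 and NCL, also named after their values were seen, differed little. NPM1 had 408 FPKM in the combination and 363 in SD70, against 372 in MI-503 and 412 in DMSO, and NCL had 141 in the combination and 117 in SD70, against 219.9 in MI-503 and 268 in DMSO.

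**Figure D2:**
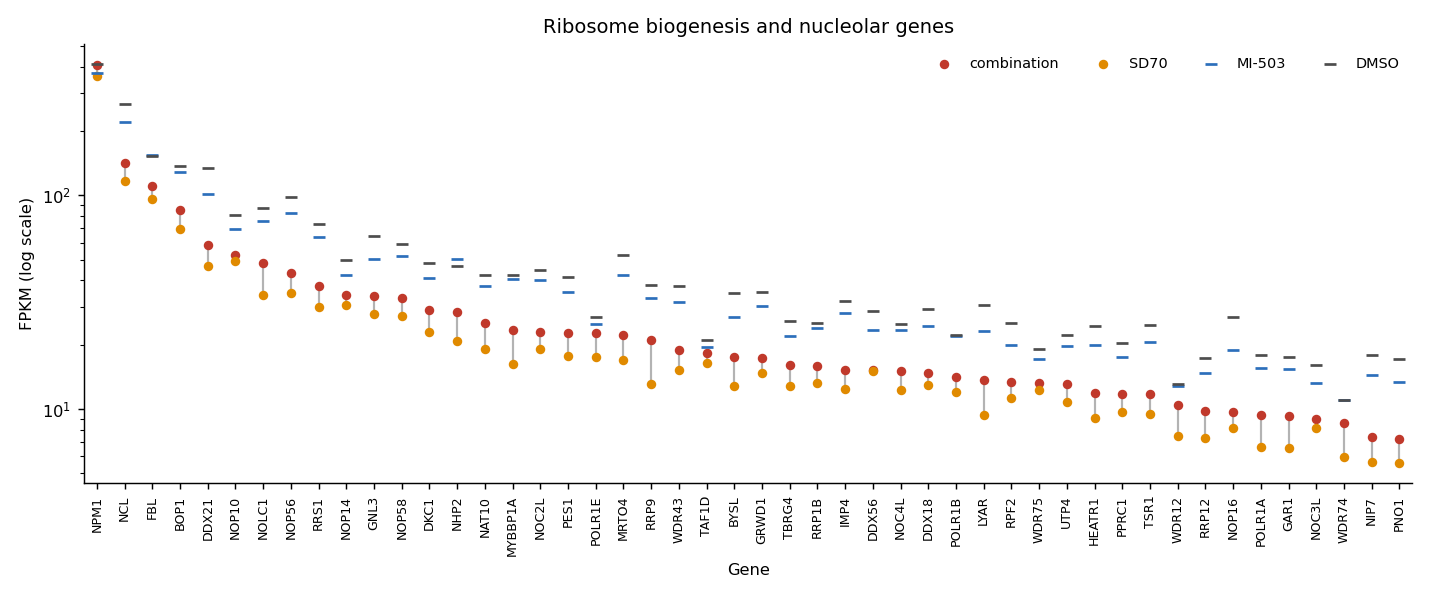
The 48 measured genes of ribosome biogenesis and the nucleolus, in order of their level in the combination, with FPKM on a log axis. Red and orange points are the combination and SD70, joined by a line, and blue and grey bars are MI-503 and DMSO, 1 library each. The red point lies above the orange one for all 48 genes, and for most of them both lie below the MI-503 and DMSO bars, NPM1 being an exception.

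MYC and its partner MAX bind the E-box CACGTG, so the 250 bases before the start of each gene were searched for those letters on both strands in RefSeq promoters of build GRCh38.p14. The letters were present in 6 of the 39 nucleolar genes with a promoter in the table (15.4%), against 12.4% of the 5374 measured genes and 7.73% of all 27305 genes that had one. Of the 15 nucleolar genes at least 0.32 log2 units higher that had a promoter, LYAR and NAT10 held the letters and are shown for that reason, NAT10 having been chosen after its values were seen. LYAR, a nucleolar zinc finger protein, had 13.7 FPKM in the combination and 9.39 in SD70, against 23.3 in MI-503 and 30.6 in DMSO. NAT10, an RNA acetyltransferase, had 25.3 FPKM in the combination and 19.2 in SD70, against 37.7 in MI-503 and 42.5 in DMSO. Their 250 bases are given 5′ to 3′ on the strand of the gene, at chr4:4290022-4290271 (minus strand) for LYAR and chr11:34105379-34105628 (plus strand) for NAT10, to show where the E-box, in capitals, lies relative to the start at the right end.
LYAR: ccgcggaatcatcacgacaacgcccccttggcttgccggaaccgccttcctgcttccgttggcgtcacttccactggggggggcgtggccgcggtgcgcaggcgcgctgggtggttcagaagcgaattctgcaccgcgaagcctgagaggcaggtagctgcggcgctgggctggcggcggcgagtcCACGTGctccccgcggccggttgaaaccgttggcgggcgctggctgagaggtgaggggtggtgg
NAT10: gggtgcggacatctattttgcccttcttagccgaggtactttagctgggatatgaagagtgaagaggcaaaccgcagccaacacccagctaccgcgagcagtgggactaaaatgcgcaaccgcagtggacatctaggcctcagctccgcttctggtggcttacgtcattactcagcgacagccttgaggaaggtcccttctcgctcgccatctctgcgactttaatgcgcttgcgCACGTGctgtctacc
The E-box began 64 bases before the RefSeq start of LYAR and 15 bases before that of NAT10. In GENCODE 29, the annotation inferred here from the identifiers and values, both genes begin further upstream (4290169 for LYAR and 34105602 for NAT10). Both E-boxes lie inside the gene there. A match is a description of the sequence and was not set against binding data.

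Lists of genes that supply the growing cell had medians above that of all genes, by less. Of 24 measured genes of nucleotide synthesis (29 listed), 4 were at least 0.32 log2 units higher, beside 3.89% of all genes, 0 were 0.32 log2 units lower, beside 1.62%, and the median was 0.17. CAD, which starts pyrimidine synthesis, had 20.7 FPKM in the combination and 14.95 in SD70, against 30.3 in MI-503 and 32.3 in DMSO. PFAS and GART, enzymes of purine synthesis, had 16.6 and 20.4 FPKM in the combination, against 12.3 and 15.8 in SD70. CTPS1, which makes CTP, had 6.64 FPKM in the combination and 4.92 in SD70, against 9.83 in MI-503 and 13.7 in DMSO. Among 11 measured polyamine genes (14 listed), 3 were at least 0.32 log2 units higher, beside 3.89% of all genes, with a median of 0.13. Only 1 was that much lower, beside 1.62% of all genes. ODC1, the entry enzyme of polyamine synthesis, had 42.3 FPKM in the combination and 31.1 in SD70, and SRM, spermidine synthase, had 57.4 and 41.4. SAT1, which acetylates polyamines for breakdown and export, went the other way with 45.1 FPKM in the combination and 57.2 in SD70, against 20.5 in MI-503 and 14.9 in DMSO. Of 41 measured DNA replication genes (45 listed), 4 were at least 0.32 log2 units higher, beside 3.89% of all genes, and 0 lower. The median was 0.11. Lower at all were 10, beside 2883 of all 6556 genes, and 14 under either other scaling. POLD2, a subunit of DNA polymerase delta, had 35.7 FPKM in the combination and 24.5 in SD70, and the uracil DNA glycosylase gene UNG had 13.9 and 9.59.

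Of 44 listed genes of the ATF4 and amino acid stress response, 31 were measured. At least 0.32 log2 units higher in the combination were 8, beside 3.89% of all genes, and 0 were 0.32 log2 units lower. Higher at all were 28, beside 56.0% of all genes. Under the other scalings 6 were at least 0.32 log2 units higher and 25 or 26 higher at all, and 1 was 0.32 log2 units lower with the same summed FPKM. The median difference was 0.24 with SD70, whereas MI-503 alone gave -0.30 against DMSO, with 15 of the 31 at least 0.32 log2 units lower, beside 4.74% of all genes, and 0 higher. PSAT1, an enzyme of serine synthesis, had 68.2 FPKM in the combination and 45.6 in SD70, against 55.8 in MI-503 and 96.6 in DMSO, so MI-503 went with more PSAT1 in the presence of SD70 and with less in its absence. ALDH1L2, a mitochondrial enzyme of folate metabolism, had 7.35 FPKM in the combination and 4.86 in SD70, against 4.93 in MI-503 and 7.75 in DMSO. SLC7A5, a transporter of large neutral amino acids, had 73.7 FPKM in the combination and 53.8 in SD70, against 87.7 in MI-503 and 132 in DMSO. SESN2, a leucine sensor that ATF4 and p53 both turn on, had 9.70 FPKM in the combination and 7.90 in SD70, against 4.77 in MI-503 and 9.91 in DMSO. These 4 genes were named because their 2 differences had opposite signs, so their shared order is a description. ATF4 itself, named after its value was seen, had 170 FPKM in the combination and 156 in SD70, against 113 in MI-503 and 160.3 in DMSO. The letters TGATGNAA of the C/EBP-ATF response element, searched in the same way, were in 3 of 25 promoters of the list (12%), against 1.84% of measured and 3.89% of all genes, and in 0 of the 5 with a promoter that were at least 0.32 log2 units higher.

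Proline synthesis and tRNA charging lay close to these genes. PYCR3, a second pyrroline carboxylate reductase, had 6.58 FPKM in the combination and 4.12 in SD70, against 15.4 in MI-503 and 17.9 in DMSO, and ALDH18A1, which makes the proline precursor, had 15.1 and 12.2, against 31.6 and 34.1. The 4 genes of the pathway, listed after their values were seen, were all higher in the combination, with a median of 0.43. All 23 listed aminoacyl-tRNA synthetase genes were measured. At least 0.32 log2 units higher were 5, beside 3.89% of all genes, and 0 were that much lower, beside 1.62%. The median was 0.21, against -0.21 for MI-503 minus DMSO. FARSB, LARS1 and VARS1, which charge tRNAs with phenylalanine, leucine and valine, had 15.4, 32.5 and 54.4 FPKM in the combination, against 11.2, 24.5 and 41.6 in SD70.

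Chaperone and mitochondrial lists had medians above that of all genes by less. Of 28 measured heat shock and cytosolic chaperone genes (31 listed), 24 were higher in the combination, beside 56.0% of all genes. Under the other scalings 21 and 23 were higher. Only 2 reached 0.32 log2 units, beside 3.89% of all genes, and the median was 0.17. HSPE1, a mitochondrial co-chaperonin, had 9.55 FPKM in the combination and 6.57 in SD70, against 20.4 in MI-503 and 33.1 in DMSO, and its reads are uncertain because the genome holds processed copies of it. FKBP4, a co-chaperone of HSP90, had 16.2 FPKM in the combination and 12.2 in SD70, against 32.5 in MI-503 and 40.7 in DMSO. Of 63 measured mitochondrial ribosomal protein genes (78 listed), 3 were at least 0.32 log2 units higher, a share near the 3.89% of all genes, and 0 lower, against 1 higher and 1 lower with the same summed FPKM. Their median was 0.11, and MRPL17 was the highest with 11.1 FPKM in the combination and 6.99 in SD70. Of 73 measured nuclear genes of the respiratory chain (94 listed), 4 were at least 0.32 log2 units higher, again near 3.89%, and 0 lower, against 2 and 0 with the same summed FPKM, and the median was 0.10. ATP5MC1, a subunit of ATP synthase, had 14.9 FPKM in the combination and 10.3 in SD70. TOMM40, the channel of mitochondrial protein import, had 40.4 FPKM in the combination and 28.2 in SD70, against 81.8 in MI-503 and 101 in DMSO. It was named through a list of import genes put together after the values were seen. Cytosolic ribosomal protein genes, which are the most abundant of these, hardly differed. Of the 79 measured (86 listed) 0 reached 0.32 log2 units in either direction, beside 5.51% of all genes, and the median was 0.06. Higher as deposited were 74, beside 56.0% of all genes, against 47 and 56 under the other scalings.

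**Figure D3:**
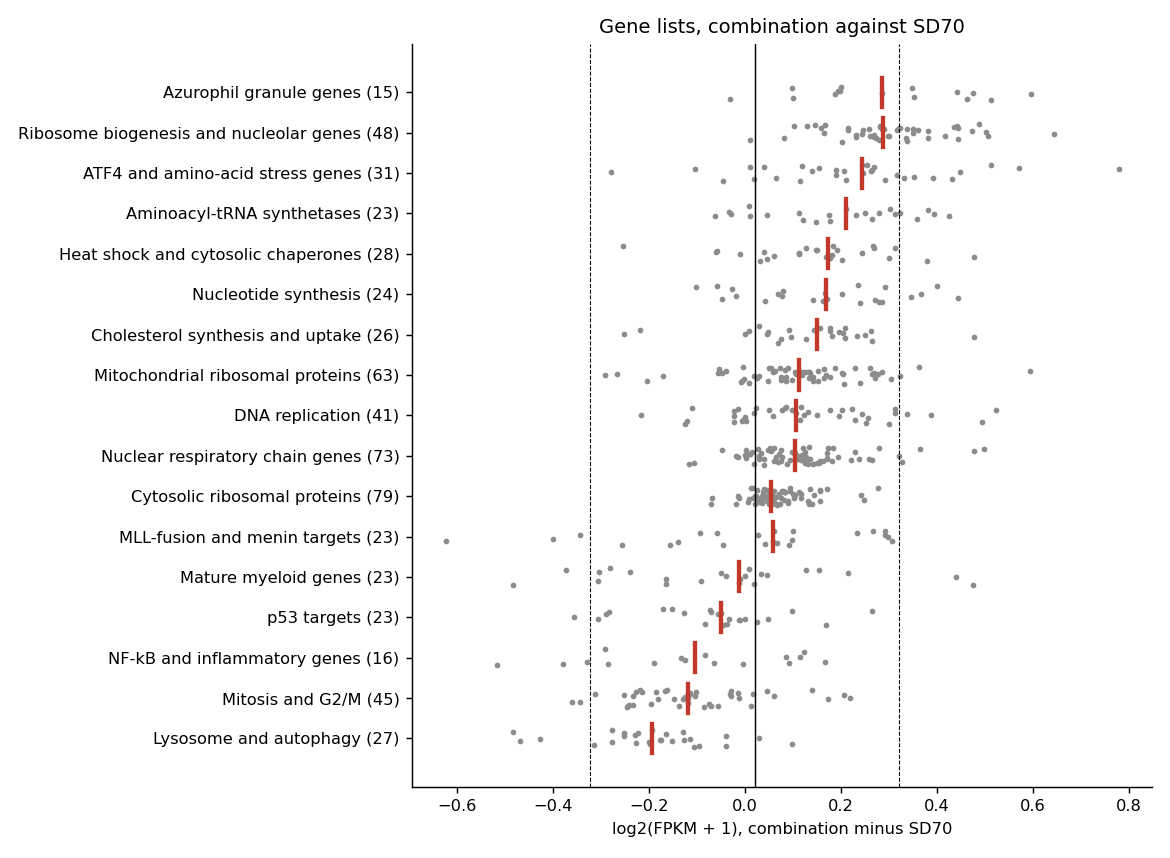
Each grey point is a measured gene and each red bar the median of its list, for 17 gene lists with the number measured in brackets. The horizontal axis is the log2(FPKM + 1) difference, combination minus SD70, the solid line is the median of all 6556 genes (0.02) and the dashed lines mark 0.32 log2 units. Azurophil granule and nucleolar genes lie furthest to the right, with medians of 0.29 each, and lysosome genes furthest to the left with -0.19.

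Azurophil granule genes were higher with MI-503 whether or not SD70 was present. Of 16 listed, 15 were measured. At least 0.32 log2 units higher in the combination than in SD70 were 7 of the 15, beside 3.89% of all genes, and 0 were 0.32 log2 units lower. Higher at all were 14, beside 56.0% of all genes. The median difference was 0.29 with SD70 and 0.39 without it. Under the other scalings 5 of the 15 reached 0.32 log2 units and 14 were higher. MPO (chromosome 17, 58269856 to 58280935), the peroxidase of these granules, had 10.5 FPKM in the combination and 6.64 in SD70, against 16.8 in MI-503 and 10.3 in DMSO. Its ratio was 1.59 (1.39 to 1.82) with SD70 and 1.63 (1.46 to 1.81) without it. PRTN3 (chromosome 19, 840960 to 848175), proteinase 3, was the most abundant with 2236 FPKM in the combination and 1567 in SD70, against 3767 in MI-503 and 3018 in DMSO, a ratio of 1.43 (1.41 to 1.45). CTSG, cathepsin G, had 57.3 FPKM in the combination and 41.3 in SD70, against 54.8 in MI-503 and 35.8 in DMSO. LYZ, lysozyme, had 329 FPKM in the combination and 237 in SD70, against 281 in MI-503 and 151 in DMSO, so that each library with MI-503 was above its counterpart without it and each with SD70 above its counterpart without that agent. By contrast MPO and PRTN3 were lower in each library with SD70 than in its counterpart without it.

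Other genes shared this direction in both settings. MS4A6A and MS4A4E encode membrane proteins of a family clustered on chromosome 11. MS4A6A had 10.1 FPKM in the combination and 6.79 in SD70, against 7.37 in MI-503 and 3.60 in DMSO, and MS4A4E had 10.4 and 6.14, against 9.38 and 5.73. MS4A3, a gene of granulocyte and monocyte progenitors in the same cluster, had 23.2 FPKM in the combination and 16.8 in SD70, against 33.1 in MI-503 and 18.4 in DMSO. It was named through a list of the family put together after the values were seen, which also holds MS4A14. MS4A14, of the same family, was lower in the combination with 7.12 FPKM against 8.58 in SD70, and it overlaps MS4A7 on the same strand, so its reads are uncertain. ALOX12, a lipoxygenase of arachidonic acid, had 21.7 FPKM in the combination and 14.5 in SD70, against 8.84 in MI-503 and 5.14 in DMSO. TSPOAP1, which lies next to MPO on chromosome 17 (58301228 to 58328760), had 56.8 FPKM in the combination and 40.5 in SD70, against 62.2 in MI-503 and 39.3 in DMSO. P2RY2, a receptor for extracellular nucleotides, had 58.3 FPKM in the combination and 38.5 in SD70, against 75.7 in MI-503 and 56.4 in DMSO. CCR2, the monocyte chemokine receptor, had 26.1 FPKM in the combination and 19.0 in SD70, against 23.8 in MI-503 and 10.9 in DMSO.

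Genes of mature myeloid cells as a whole did not follow the granule genes. Of 40 listed, 23 were measured, with a median of -0.01. At least 0.32 log2 units higher were 2 (LYZ and CCR2), beside 3.89% of all genes. That much lower were 2 (CD86 and NCF1), beside 1.62% of all genes. MI-503 alone gave a median of 0.81 over DMSO, with 21 of the 23 at least 0.32 log2 units higher, beside 7.46% of all genes. ITGAX, an integrin of monocytes and dendritic cells, had 21.7 FPKM in the combination and 27.1 in SD70, against 7.19 in MI-503 and 2.41 in DMSO. ITGB7, an integrin subunit, had 12.1 FPKM in the combination and 15.2 in SD70, against 4.96 in MI-503 and 1.02 in DMSO. ANXA1, an annexin of phagocytes, had 8.62 FPKM in the combination and 9.69 in SD70, against 4.62 in MI-503 and 1.204 in DMSO. For all 3 the libraries with SD70 stood above the others, and MI-503 went with a higher level only in the absence of SD70. CD86, a costimulatory surface protein, had 5.76 FPKM in the combination and 8.45 in SD70, against 2.54 in MI-503 and 1.23 in DMSO. Among 17 measured myeloid transcription factors (25 listed) 0 were at least 0.32 log2 units higher and ID2 alone was 0.32 log2 units lower, beside 3.89% and 1.62% of all genes.

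**Figure D4:**
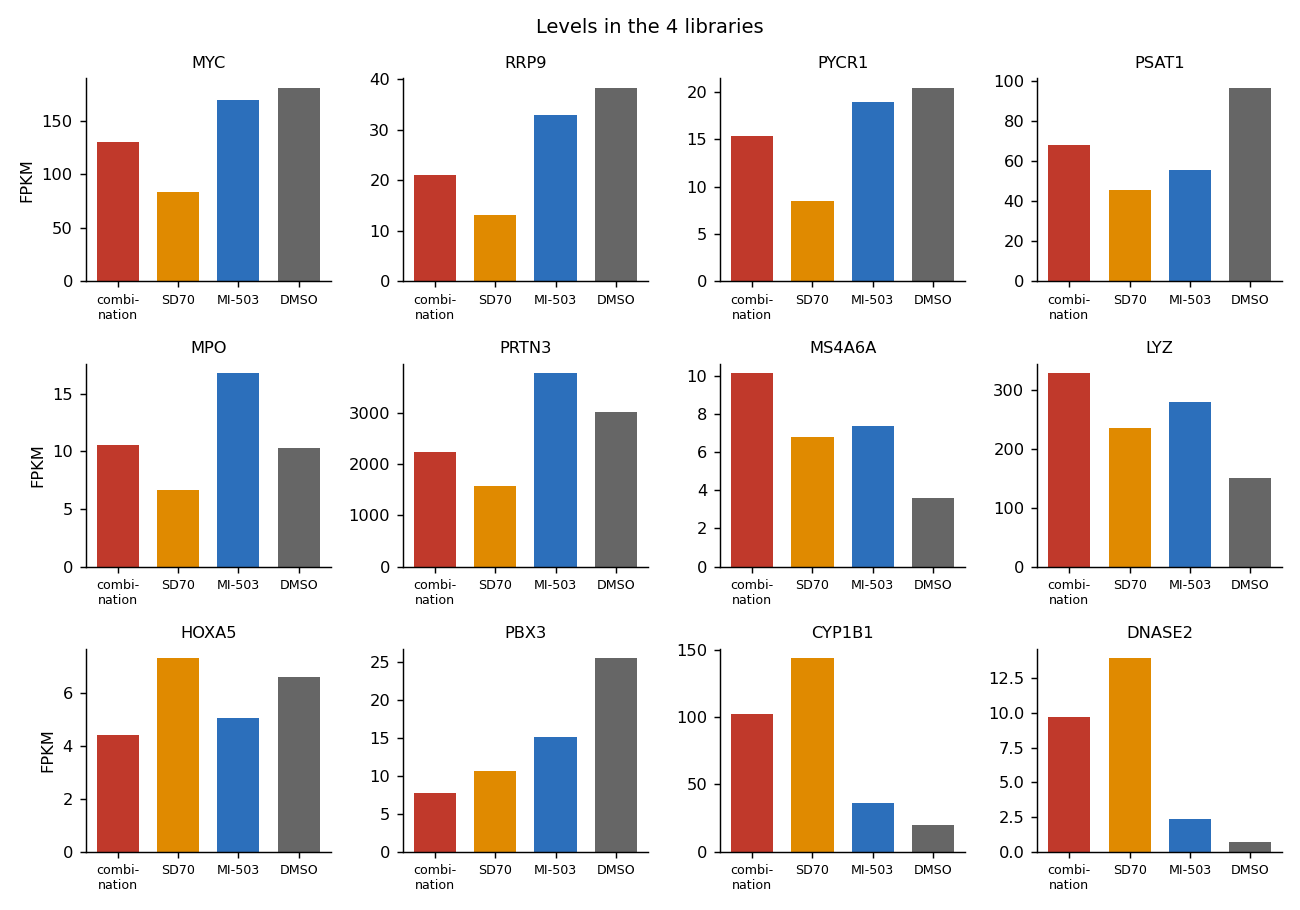
FPKM of 12 genes in the 4 libraries, 1 bar per library, each panel with its own axis from 0. In MYC, RRP9 and PYCR1 the SD70 bar is the lowest and the combination bar stands between it and the 2 libraries without SD70. In MPO, PRTN3, MS4A6A and LYZ both libraries with MI-503 exceed their counterparts, in HOXA5 and PBX3 both lie below them, and in CYP1B1 and DNASE2 the direction differs with and without SD70.

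Targets of the MLL fusion and of menin showed no common direction. Of 38 listed, 23 were measured, with a median of 0.06. At least 0.32 log2 units higher were 0, beside 3.89% of all genes, and 3 (13.0%) were that much lower, beside 1.62%. Higher at all were 14 (60.9%), near the 56.0% of all genes, against 12 and 13 of the list under the other scalings. In the same 23 genes MI-503 alone gave a median of -0.32 against DMSO. At least 0.32 log2 units lower were 12, beside 4.74% of all genes, and 0 were that much higher, beside 7.46%. The 3 lower genes in the combination were HOXA5, PBX3 and DACH1, and all 3 were also lower with MI-503 alone. HOXA5 (chromosome 7, 27141052 to 27143668), a homeobox gene of the HOXA cluster, had 4.39 FPKM in the combination and 7.31 in SD70, against 5.07 in MI-503 and 6.59 in DMSO, a ratio of 0.601 (0.473 to 0.761). PBX3 (chromosome 9, 125747345 to 125967377), a cofactor of HOX proteins, had 7.79 FPKM in the combination and 10.6 in SD70, against 15.2 in MI-503 and 25.5 in DMSO, a ratio of 0.735 (0.657 to 0.822). DACH1, a transcriptional regulator, had 7.68 FPKM in the combination and 10.02 in SD70, against 20.5 in MI-503 and 47.4 in DMSO, a ratio of 0.767 (0.691 to 0.851). In HOXA5, PBX3 and DACH1 the combination was the lowest of the 4 libraries. In PBX3 and DACH1, as in HOXA9 and MEIS1 below, each agent went with a lower level in both settings. HOXA9 had 16.1 FPKM in the combination and 17.8 in SD70, against 18.8 in MI-503 and 25.1 in DMSO, a ratio of 0.903 (0.817 to 0.998). MEIS1, the partner of HOXA9, was under the 5 FPKM minimum, with 1.01 FPKM in the combination and 1.45 in SD70, against 3.16 in MI-503 and 5.84 in DMSO, a ratio of 0.695 (0.569 to 0.849).

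Other fusion targets differed from SD70 in the opposite direction. FLT3, a receptor kinase of progenitors, had 51.1 FPKM in the combination and 41.6 in SD70, against 48.2 in MI-503 and 65.3 in DMSO. BCL2, an inhibitor of apoptosis, had 14.8 FPKM in the combination and 12.1 in SD70, against 17.4 in MI-503 and 18.4 in DMSO. CDK6, a cell cycle kinase, had 24.2 FPKM in the combination and 19.5 in SD70, against 31.7 in MI-503 and 44.5 in DMSO, and IGF2BP2, an RNA-binding protein, had 16.7 and 13.3, against 18.9 and 24.3. Each had a ratio of the combination to SD70 between 1.22 and 1.26. MCL1, another inhibitor of apoptosis, had 53.1 FPKM in the combination and 52.2 in SD70, a ratio of 1.02 (0.971 to 1.07), and its difference changed sign under both other scalings. Further targets named after their values were seen lay low in both libraries with SD70, under the 5 FPKM minimum. MEF2C, a myeloid and lymphoid transcription factor, had 4.004 FPKM in the combination and 4.32 in SD70, against 11.9 in MI-503 and 29.9 in DMSO. SOCS2, a suppressor of cytokine signalling, had 2.90 FPKM in the combination and 2.54 in SD70, against 9.22 in MI-503 and 22.9 in DMSO.

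The genes of the agents' targets differed little. MEN1, which encodes menin, had 15.7 FPKM in the combination and 13.1 in SD70, against 22.6 in MI-503 and 20.3 in DMSO, a ratio of 1.201 (1.10 to 1.32). KDM4C had 4.25 FPKM in the combination and 4.61 in SD70, against 3.79 in MI-503 and 3.70 in DMSO, a ratio of 0.922 (0.829 to 1.02). KMT2A had 2.17 FPKM in the combination and 2.07 in SD70, and MLLT3 had 1.39 and 1.46. Values of these 2 genes can hold reads of the fusion transcript, which a gene total does not separate. KDM4C, KMT2A and MLLT3 were under the 5 FPKM minimum, so MEN1 alone of the genes named here is among the measured ones. Of 23 measured genes of these targets and their complexes (27 listed), 0 were 0.32 log2 units apart in either direction, beside 5.51% of all genes.

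Lysosome and autophagy genes were mostly lower. Of 27 measured genes (32 listed), 25 were lower in the combination than in SD70, beside 2883 of all 6556 measured genes. At least 0.32 log2 units lower were 3, beside 1.62% of all measured genes, and 0 were that much higher. The median was -0.19 with SD70, whereas MI-503 alone gave 0.19 over DMSO. Under the other scalings 26 of the 27 were lower and 6 or 4 at least 0.32 log2 units lower. DNASE2, the acid DNase of lysosomes, had 9.69 FPKM in the combination and 13.9 in SD70, against 2.39 in MI-503 and 0.693 in DMSO. GABARAPL1, a protein of autophagosome membranes, had 4.65 FPKM in the combination and 6.82 in SD70, against 1.49 in MI-503 and 1.57 in DMSO. TFEB, a transcription factor that turns on lysosomal genes, had 4.77 FPKM in the combination and 6.76 in SD70, against 3.51 in MI-503 and 2.51 in DMSO. All 3 stood highest in SD70. LAMP1, a lysosomal membrane protein named after its value was seen, had 58.8 FPKM in the combination and 57.6 in SD70.

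Further genes that were high in SD70 were lower in the combination. CYP1B1, a cytochrome P450 that the aryl hydrocarbon receptor turns on, had 102 FPKM in the combination and 143 in SD70, against 35.95 in MI-503 and 19.8 in DMSO, a ratio of 0.714 (0.696 to 0.733). BMF, a BH3-only protein that promotes apoptosis, had 19.4 FPKM in the combination and 27.1 in SD70, against 6.68 in MI-503 and 3.07 in DMSO. BCL3, an atypical IκB protein, had 8.64 FPKM in the combination and 12.8 in SD70, against 2.87 in MI-503 and 1.43 in DMSO. With TNFAIP2 (19.95 FPKM in the combination and 26.2 in SD70) and NFKBIA, the classical IκB inhibitor (12.2 and 15.6), it made 3 of 16 measured NF-κB genes (30 listed) at least 0.32 log2 units lower, beside 1.62% of all genes, with 0 higher. Under the other scalings 5 or 4 were that much lower, and the median of the list was -0.10, but 0.09 with a minimum level of 20 FPKM. Among 9 measured S100 and annexin genes (28 listed), 7 were lower, beside 2883 of all 6556 genes, and the median was -0.21. ANXA5 had the lowest difference, with 30.7 FPKM in the combination and 38.9 in SD70.

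Most mitotic genes and some histone genes were lower. H2AC6 (chromosome 6, 26124145 to 26139116) had 23.3 FPKM in the combination and 34.4 in SD70, against 7.49 in MI-503 and 2.78 in DMSO, and H2BC5 had 9.28 and 12.5, against 2.57 and 0.760. Of 14 measured histone genes (81 listed) 3 were at least 0.32 log2 units lower, beside 1.62% of all genes. Higher at all were 7, beside 56.0% of all genes. Histone genes share sequence between copies, so their reads are uncertain. Of 45 measured genes of mitosis (49 listed), 37 were lower in the combination, beside 2883 of all 6556 genes, and 39 under either other scaling. The median was -0.12, against -0.22 for MI-503 minus DMSO. At least 0.32 log2 units lower were 2 of the 45 (4.44%), CDCA8 and INCENP, beside 1.62% of all genes. CDCA8 had 16.3 FPKM in the combination and 21.3 in SD70, against 28.7 in MI-503 and 31.8 in DMSO. INCENP had 14.4 and 18.5, against 24.99 and 29.8. Both are subunits of the chromosomal passenger complex, and both were lowest in the combination. SAP30, a subunit of the SIN3 deacetylase complex, also had its lowest level in the combination with 9.36 FPKM and 13.9 in SD70, against 13.7 in MI-503 and 17.0 in DMSO. BRMS1, which belongs to the same kind of complex, had 10.6 FPKM in the combination and 13.2 in SD70, against 15.6 in MI-503 and 19.6 in DMSO. NAB2, a corepressor of EGR factors, had 7.28 FPKM in the combination and 9.13 in SD70, against 5.94 in MI-503 and 7.65 in DMSO.

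Cholesterol genes stood above both MI-503 and DMSO in the 2 libraries with SD70, and the combination was slightly higher again. Of 26 measured (32 listed), 24 were higher in the combination than in SD70, beside 56.0% of all genes, against 20 and 21 under the other scalings. Only 1 was at least 0.32 log2 units higher, a share near the 3.89% of all genes, and the median was 0.15. HMGCS1, which makes the precursor of mevalonate, had 89.7 FPKM in the combination and 64.1 in SD70, against 10.6 in MI-503 and 11.9 in DMSO, a ratio of 1.40 (1.35 to 1.45). FASN, fatty acid synthase, which is outside that list, had 189.9 FPKM in the combination and 141 in SD70, against 128 in MI-503 and 127 in DMSO, a ratio of 1.35 (1.32 to 1.37).

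The same agent gave different differences in the presence and in the absence of SD70. The pairs combination and SD70, and MI-503 and DMSO, share no library. Across the 6556 genes their differences had a Pearson correlation of -0.24 and a Spearman correlation of -0.25, which describe these 4 libraries and carry no test, since genes are not independent replicates. The sign was the same in 40.8% of genes: 1287 were higher with MI-503 in both settings and 1387 lower in both, while 2386 were higher with SD70 and lower without it, and 1496 lower with SD70 and higher without it. With the same summed FPKM these 4 counts were 810, 2060, 1985 and 1701, with 43.8% of signs the same, and with the same number of reads 1058, 1699, 1940 and 1859, with 42.1%. For 1809 genes the counting intervals of both ratios left out 1, and the sign was the same in 28.4% of those. Lists fell into different parts of this comparison. Nucleolar, ATF4, tRNA synthetase and chaperone genes had medians above 0 with SD70 and below 0 without it, granule genes above 0 in both, mitotic genes below 0 in both, and lysosome genes below 0 with SD70 and above 0 without it, under each of the 3 scalings for the difference from SD70.

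**Figure D5:**
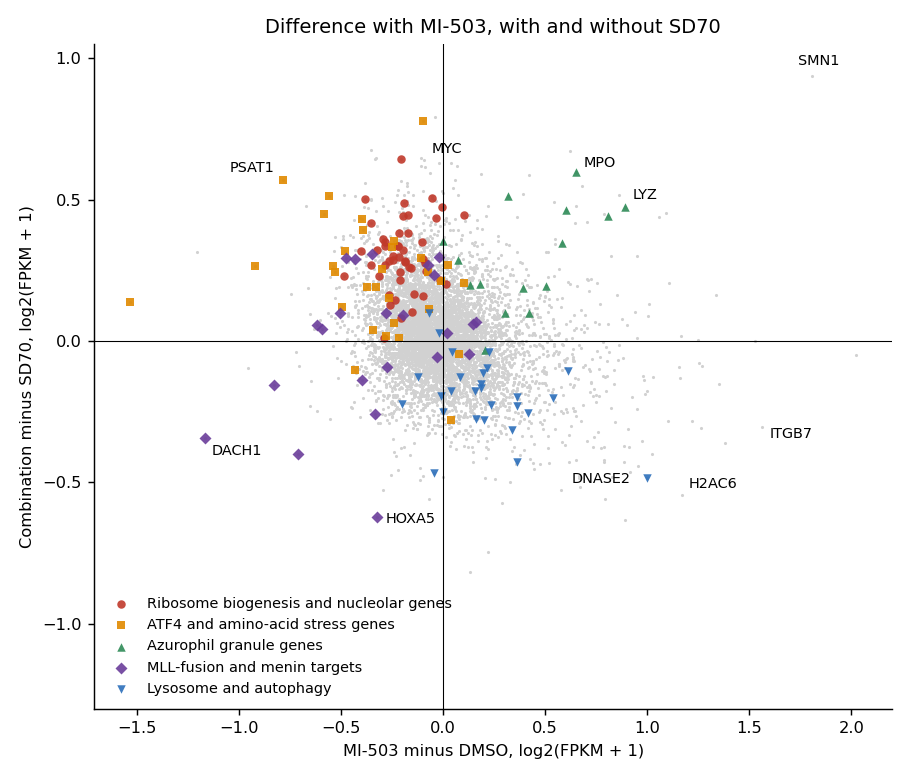
Each point is a gene, with the log2(FPKM + 1) difference MI-503 minus DMSO on the horizontal axis and combination minus SD70 on the vertical axis, and 5 lists in colour over all 6556 measured genes in grey. Granule genes lie mostly at the upper right, nucleolar and ATF4 genes at the upper left and lysosome genes at the lower right, with HOXA5 and DACH1 at the lower left.

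The departure of a gene is its difference combination minus SD70 less its difference MI-503 minus DMSO, and 0 means that MI-503 went with the same fold in both settings. Among well-counted genes whose differences had opposite signs, the most positive departure was that of OCSTAMP, a membrane protein of cell fusion, at 1.52, with 11.2 FPKM in the combination and 8.80 in SD70, against 4.89 in MI-503 and 12.6 in DMSO. PSAT1 followed with 1.35. The most negative was that of ITGB7 at -1.87, followed by ZNF467, a zinc finger gene, at -1.74, with 7.28 FPKM in the combination and 9.62 in SD70, against 2.30 in MI-503 and 0.266 in DMSO. H2AC6 had -1.71 and ITGAX -1.57. The genes with negative departures named here were low in DMSO and high in both libraries with SD70, and those with positive ones were lowest in MI-503 or SD70. The choice of genes by departure and opposite sign favours these orders, so they only describe the genes chosen. No replicate bears on the departure of any gene.

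A fit over all 4 libraries gave no call for MI-503 with limma on log2(FPKM + 1), and 8 with limma-voom. With limma on log2(FPKM + 1), a term for each agent and Benjamini-Hochberg adjustment over 12296 genes, 0 genes (0%) passed an adjusted p of 0.05, 401 had an unadjusted p under 0.05, and the smallest adjusted p was 0.6921. That term averages the difference from SD70 and the difference from DMSO, and takes the departure as its error. With limma-voom on the recovered reads 8 genes (0.0651%) passed. Of these SMN1, PLAC8, LYZ, CCR2 and MS4A6A rose with MI-503, and CPEB2, DACH1 and the pseudogene GTF2IP1 fell. Reads of SMN1 may be split with its copy SMN2, as given above. In that fit LYZ rose by 0.68 on the log2 scale (limma-voom adjusted p = 0.0180) and DACH1 fell by 0.83 (limma-voom adjusted p = 0.0170), each in both pairs of libraries. MPO had a change of 0.62 ± 0.12 (SE) in the limma fit with an adjusted p of 0.7363, and MYC and the nucleolar genes passed in neither fit. MYC and all 48 nucleolar genes were higher with SD70 as deposited (47 of the 48 under either other scaling), beside 56.0% of all measured genes. Without SD70, MYC and 46 of the 48 were lower, beside 3773 of all 6556 genes. The term averages such opposite differences, so it cannot decide whether these genes differed from SD70.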

How the data were processed

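RNA-seq values of 4 libraries of the MOLM13 line were used, 1 per group. The authors deposited values per gene, taken here as FPKM, and the submitters' processing notes name BWA, Bowtie and hg38 without a role or version. The counter, annotation, strand setting, doses and number of cultures are not given in the sources used here, so overlapping and antisense genes are uncertain. All 58735 identifiers are in GENCODE 29, and 58207 were matched to gene names. Multiplying FPKM by the exon length of a gene in that release gave whole reads, within 0.01, which served for depth and counting intervals. The unit FPKM was taken from the values.

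Differences are on the log2(FPKM + 1) scale, which understates those of low genes, and steps of 0.32 log2 units (a fold of 5 to 4), 1.5-fold and 2-fold count as apart. The ratio of FPKM has an exact Clopper-Pearson 95% interval. Amplified reads carry no molecular identifiers, so they are not separate molecules and the intervals cover counting error only. With 1 library per group no test was made between 2 libraries. An additive fit with both agents over all 4 libraries used limma 3.58.1 (R 4.3.3) with a trend, on genes averaging at least 1 FPKM, adjusted by Benjamini-Hochberg. Other steps used Python 3.11.15, pandas 2.3.3, NumPy 2.4.6, SciPy 1.17.1 and matplotlib 3.10.9, and were tested on simulated data. Pseudocount, minimum level, scaling, gene class and fold were varied.

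Genes named were the 15 highest and 15 lowest differences among well-counted genes, the 6 highest and 6 lowest with the same sign in both settings, the 6 most positive and 6 most negative departures of opposite sign, up to 4 members of each list by size of difference, and the genes of the drug targets with MYC, HOXA9, MEIS1, FLT3, BCL2 and MCL1. The members and gene lists were chosen with earlier results of these data known, and 5 further lists after the values of this comparison were seen. Genes outside the rule are said to be chosen that way. The fit names the genes that limma-voom called. Some results are not reported here.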

Additional observations from a re-analysis of the deposited data

Results flagged for a closer look

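Adding MI-503 went with opposite directions in cells with and without SD70 for 15 of the named genes reported here, by at least 0.32 log2 units against SD70 and by at least 1.5-fold the other way against DMSO. Those limits were chosen after the values were seen, and the difference between the settings was not tested, since each rests on 1 library. The count covers named genes only, some of them named for their opposite signs. No count over all genes under these limits is given, so the 15 cannot be set against a background share. Of all 6556 measured genes, 2386 were higher with SD70 and lower without it, and 1496 the reverse. Those are counts of signs with no limit on size, and opposite signs were common. The departure given for each gene is the difference combination minus SD70 less the difference MI-503 minus DMSO, in log2(FPKM + 1) units.

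PSAT1 and HSPE1 were higher in the combination and lower in MI-503 than in DMSO, with departures of 1.35 and 1.15. The other 13 were lower in the combination than in SD70 and higher in MI-503 than in DMSO. Among them the zinc finger genes ZNF467 and ZNF579 had departures of -1.74 and -0.95. The histone genes H2AC6, H2BC5 and H1-2 had -1.71, -1.42 and -0.96, and their reads are uncertain because histone genes share sequence. YPEL3 had -1.52 and the lysosomal nuclease DNASE2 -1.48. BMF, which promotes apoptosis, had -1.38, DHRS3, a retinaldehyde reductase, -1.35 and CYP1B1, a cytochrome P450, -1.31. BCL3 had -1.19, the costimulatory protein CD86 -1.15 and NCF1, a subunit of the phagocyte oxidase, -1.11. All 13 had their highest level of the 4 libraries in SD70. The limits already required SD70 above the combination and MI-503 above DMSO in each of the 13, which favours that order.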

How the results depend on the processing

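The count of genes 1.5-fold apart between the combination and SD70 was 23. It was 36 and 3 with pseudocounts of 0.1 and 5, 68 and 4 with minimum levels of 1 and 20 FPKM, 92 with no minimum, 98 over all annotated genes, 361 at 0.32 log2 units and 0 at 2-fold. Between MI-503 and DMSO it was 182, against 49 with a pseudocount of 5, 281, 56 and 304 with minimum levels of 1, 20 and none, 800 at 0.32 log2 units and 29 at 2-fold. The 361 genes at 0.32 log2 units became 129 with a pseudocount of 5, and 699 and 88 with minimum levels of 1 and 20 FPKM, alternatives added after the data were seen. A higher pseudocount or minimum gave fewer genes by construction. The additive fit called 0 genes with or without the trend, the filter or another pseudocount, and 8 with limma-voom, for which the cause was not tested. Of 348 list medians under other settings 335 moved by less than the counting error of their members, and 24 changed sign. All of those 24 lay closer to 0 than that error as deposited, except housekeeping genes, which had -0.0044 with the same summed FPKM, against 0.05. Of 1027 values of named genes 984 moved by less than their counting error and 2 changed sign, both of MCL1. No paired analysis was possible because each group has 1 library and no replicate number pairs libraries, beyond the additive fit, which compares MI-503 within each SD70 setting. No library could be left out.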
